A study of Mus musculus with 8 samples.

Results

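Ferroptosis is a form of cell death driven by iron and by peroxides of polyunsaturated membrane lipids. The 9 mouse genes described here encode the core of the defence against it and the enzymes that prepare or oxidise its lipid substrates: Slc7a11, Slc3a2, Gpx4, Aifm2, Gch1, Dhodh, Acsl4, Lpcat3 and Alox15. They were chosen by symbol, through their Ensembl gene identifiers, from the 55487 genes of the count table, and all 9 passed the filter on low counts. Their transcripts were measured in bone marrow-derived dendritic cells (BMDC) and in BMDC that had engulfed cells dying from ferroptosis (BMDC-fer), with 4 RNA-seq libraries per group.

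BMDC of both groups carried the label WT and were grown from the marrow of C57/bl6 mice (named C57BL/6J in the methods, female, 6 to 8 weeks old) in 20 ng/ml GM-CSF for 10 days. Those cultures hold other myeloid cells besides dendritic cells. For BMDC-fer, cells stained with CellTraceViolet were kept for 4 h with Jurkat cells, a human T-cell leukemia line, which had been treated for 14 h with 0.5 µM ML162, an inhibitor of GPX4. The BMDC that had taken up dying cells were then isolated by sorting, while the control BMDC were untreated. Uptake, contact with dying cells, exposure to any ML162 they carried and the sort therefore cannot be told apart. The question these genes bear on is how a phagocyte that took up cells dying from ferroptosis expresses the machinery that handles peroxidised lipids. The counts hold no measure of lipid peroxides in these BMDC.

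As background, the transporter made of the proteins of Slc7a11 and Slc3a2 brings in cystine, from which glutathione is made. GPX4 uses glutathione to reduce lipid peroxides within membranes. AIFM2 (also called FSP1) and DHODH keep coenzyme Q reduced at the plasma membrane and in mitochondria, and GCH1 starts the synthesis of the antioxidant tetrahydrobiopterin. On the other side, ACSL4 activates polyunsaturated fatty acids, LPCAT3 places them into phospholipids, and the lipoxygenase encoded by Alox15 can oxidise them there.

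Alox15 was the only member that edgeR called over all replicates with TMM scaling and no replicate block, and it fell 8.93-fold in BMDC-fer. A gene was called where edgeR's quasi-likelihood test gave a Benjamini-Hochberg adjusted p no higher than 0.05 and the log2 fold change was at least 0.58 in size. By that rule 1 of the 9 members was called, beside 9.38% of the 15411 genes tested (3.47% called higher and 5.91% called lower). These were 534 higher and 911 lower, or 300 and 1179 with library totals alone in place of TMM. Slc3a2 was higher, and Acsl4 lower, in all 4 BMDC-fer libraries than in any BMDC library, and neither reached the adjusted threshold. The remaining 6 members overlapped between the groups. Groups that do not overlap were seen for 3 of 9 members and for 22.9% of all genes tested. The median log2 fold change of the 9 members was 0.23, and that of all tested genes was 0.00069.

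Total counts ranged from 39326672 to 50532209 per library, so that 3 counts, the floor used here, equalled 0.0607 to 0.0785 CPM (counts relative to library size, on sizes scaled by TMM). Every member lay above that floor in every library. In both groups replicates 1 and 2 differed from replicates 3 and 4, with a chi-square per gene of 133 to 346 across these sets and 9.0 to 40.9 within them. The labels do not say what sets them apart, and each member is therefore also given within replicates 1 and 2 and within replicates 3 and 4. Itgax, which encodes the dendritic cell marker CD11c, ranged from 787 to 1406 CPM in BMDC and from 748 to 1316 in BMDC-fer. Other dendritic cell markers were less alike. Flt3, Zbtb46, H2-Ab1, H2-Eb1, Cd86, H2-Aa and Cd74 had log2 fold changes of -4.06 to -1.15, and only Flt3 and Cd86 of these were called. Itgam and Csf2ra, at 0.34 and 0.28, were not called. The share of mitochondrially encoded counts was 3.68% to 4.34% in BMDC and 3.83% to 4.95% in BMDC-fer.

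**Figure D1:**
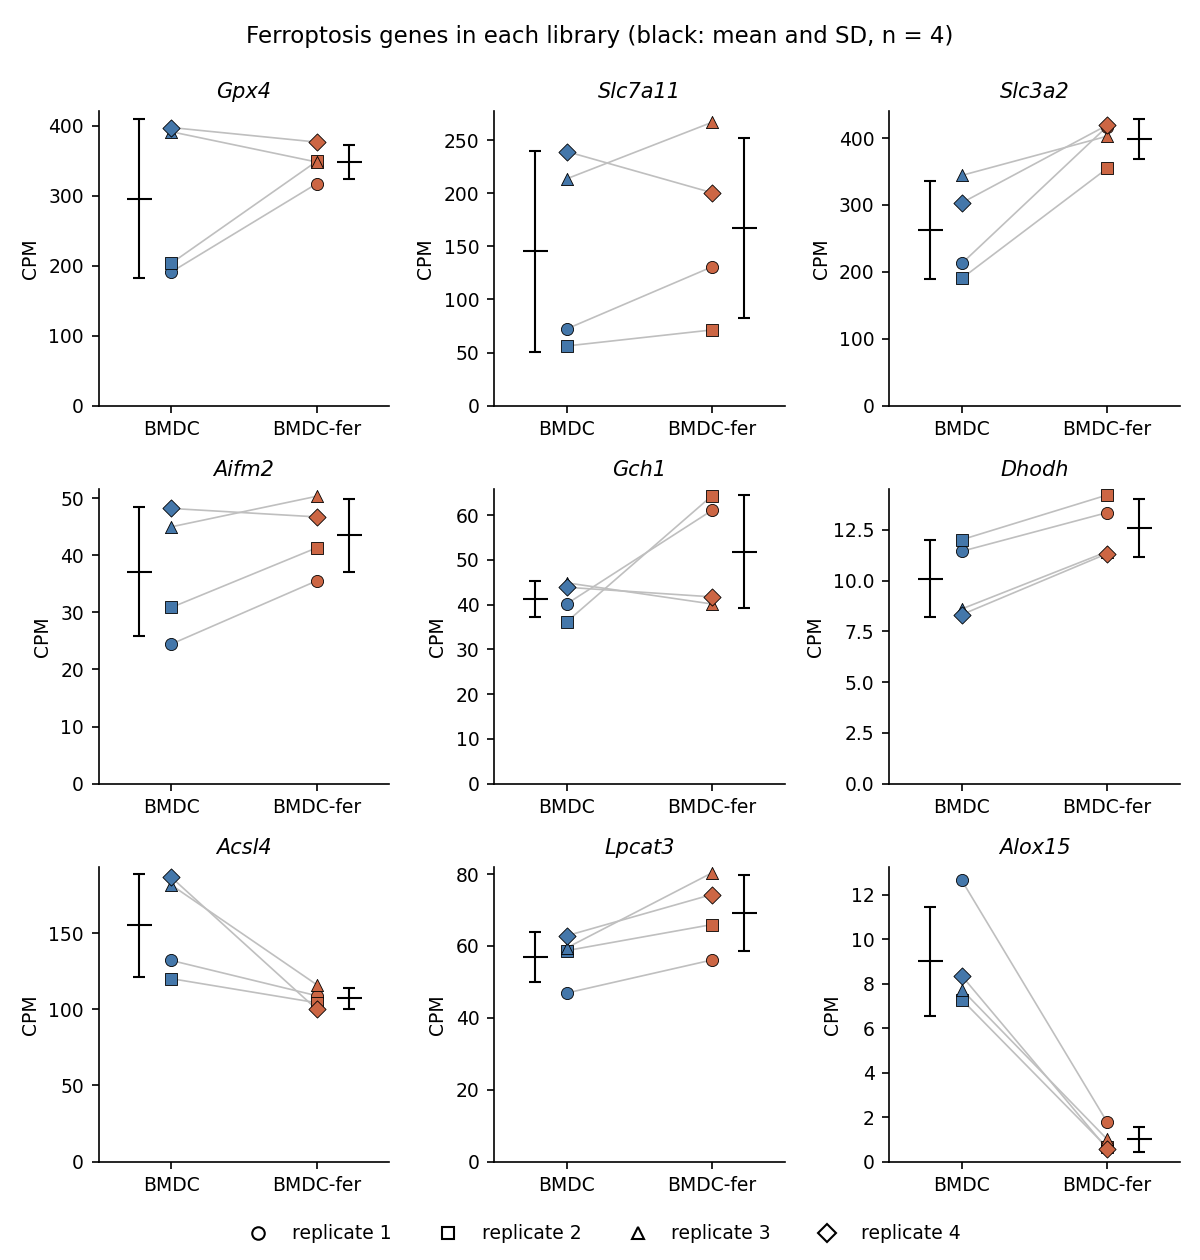
CPM (vertical axes, linear from 0) of the 9 genes in each BMDC (blue) and BMDC-fer (orange) library, with a marker shape per replicate number, grey lines between same-numbered libraries and black bars for the mean and SD of 4 libraries. Alox15 and Acsl4 lie lower and Slc3a2 higher in all 4 BMDC-fer libraries, and Slc7a11 and Gpx4 show low values in BMDC replicates 1 and 2.

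Cystine import was measured through both of its subunits. Slc7a11 (ENSMUSG00000027737, chromosome 3, 49892526 to 50443614 of GRCm38, minus strand) encodes the subunit that carries cystine. Its level was 72.2, 56.2, 214 and 239.5 CPM in BMDC replicates 1 to 4. In BMDC-fer it was 131, 71.3, 267 and 201 CPM. The groups overlapped, and the difference between the replicate sets was the main feature of this gene. Replicates 3 and 4 averaged 3.53 times the level of replicates 1 and 2 in BMDC and 2.32 times in BMDC-fer. The group means were 145 ± 94.6 and 167 ± 84.9 CPM (SD, n = 4). BMDC-fer over BMDC gave a log2 fold change of 0.20 with an SE of 0.54 (edgeR adjusted p = 0.827), and the two-sided exact permutation p was 0.657. Within replicates 1 and 2 it was 0.66 (edgeR adjusted p = 0.118), and within replicates 3 and 4 it was 0.06 (edgeR adjusted p = 0.698). It changed sign when BMDC replicate 1, BMDC replicate 2 or BMDC-fer replicate 3 was left out, with log2 fold changes of -0.013, -0.058 and -0.11.

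Because Slc7a11 is a textbook target of the amino acid response, its start region is shown first among the promoters. The windows run from 250 bases before to 50 bases after each start in RefSeq on GRCm38.p6, and 7 of the 9 members had one. Dhodh and Alox15 had no entry. The capitals mark TGATGNAA, the core of the amino acid response element, searched on both strands, and the region is chr3:50443564-50443863 on the minus strand, printed 5′ to 3′ in the direction of transcription.
Slc7a11: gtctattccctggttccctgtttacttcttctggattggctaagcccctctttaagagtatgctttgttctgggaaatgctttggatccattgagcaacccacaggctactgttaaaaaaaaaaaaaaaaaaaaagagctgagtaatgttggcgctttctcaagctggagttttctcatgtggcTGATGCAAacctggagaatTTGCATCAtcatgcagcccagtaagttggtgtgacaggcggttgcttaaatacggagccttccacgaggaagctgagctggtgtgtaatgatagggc
The window held 2 matches, beginning 66 and 47 bases before the start on opposite strands. Of 32851 windows of that length, 3.969% held at least 1 match, and no other member window did. The letters TGACNNNGC, a core of the antioxidant response element, were in 12.39% of all windows and in 0 of the windows of the 7 matched members. A match of letters describes the sequence only.

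Slc3a2 (ENSMUSG00000010095, chromosome 19, 8706882 to 8723369, minus strand) encodes the heavy chain that brings the cystine transporter, and several other amino acid transporters, to the cell surface. It was at 213, 190.3, 344 and 303 CPM in BMDC replicates 1 to 4. It was at 417, 355, 403 and 419 CPM in BMDC-fer. Every BMDC-fer library was above every BMDC library, with the narrowest gap between BMDC replicate 3 and BMDC-fer replicate 2. The means were 263 ± 73.1 and 399 ± 30.2 CPM (SD, n = 4). The log2 fold change of 0.60 (1.52-fold, SE 0.19) had an edgeR adjusted p of 0.0760. The two-sided exact permutation p was 0.0286, the smallest that 4 against 4 libraries allow. With the replicate number as a block, the log2 fold change was 0.64 and passed (edgeR adjusted p = 0.0415), so that 2 of 9 members were called beside 13% of all genes. It passed with DESeq2 (0.61, adjusted p = 0.0373, with 13.3% of genes called), with DESeq2 and the block (0.65, adjusted p = 0.00450, with 16.3% called) and within replicates 1 and 2 (0.95, edgeR adjusted p = 0.00457). Within replicates 3 and 4 it was 0.36 (edgeR adjusted p = 0.00299), under the fold threshold. Among the 8 fits that each left out 1 library, Slc3a2 was called only without BMDC replicate 3 (0.76, edgeR adjusted p = 0.0458).

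The transporter's partners can be read beside it, since the heavy chain is shared. Slc7a5, whose protein carries large neutral amino acids together with the heavy chain, fell from 106 ± 22.3 to 35.1 ± 14.5 CPM (log2 fold change -1.59, edgeR adjusted p = 0.0142). Slc7a8, another light chain of the same kind, rose from 105 ± 35.3 to 252 ± 69.1 CPM (1.26, edgeR adjusted p = 0.0250). Slc7a7, a light chain for cationic and neutral amino acids, fell from 25.5 ± 1.19 to 16.5 ± 3.03 CPM (-0.63, edgeR adjusted p = 0.0312). Slc7a1, a cationic amino acid transporter that works without the heavy chain, fell from 66.6 ± 19.3 to 30.2 ± 9.07 CPM (-1.14, edgeR adjusted p = 0.0296), and its call was lost with the block (edgeR adjusted p = 0.0650). Of the 14 genes listed as other SLC7 transporters with their partner Slc3a1, 8 were tested, of which 1 rose and 3 fell, with a median log2 fold change of -0.30. Among all genes tested, 3.47% were called higher and 5.91% lower.

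Gpx4 (ENSMUSG00000075706, chromosome 10, 80047166 to 80056439, plus strand) encodes the selenium-dependent peroxidase that ML162 inhibits. Its level was 191, 204, 392 and 398 CPM in BMDC replicates 1 to 4. In BMDC-fer it was 317, 349, 348 and 377 CPM. The BMDC-fer libraries lay close together, between the low and the high BMDC libraries, and the groups overlapped. The means were 296 ± 114 and 348 ± 24.4 CPM (SD, n = 4). The log2 fold change was 0.23 with an SE of 0.25 (edgeR adjusted p = 0.567), and the two-sided exact permutation p was 0.429. Within replicates 1 and 2 it was 0.76 and called (edgeR adjusted p = 0.00519), in a fit that called 19.4% of all genes. Within replicates 3 and 4 it was -0.11 (edgeR adjusted p = 0.187).

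The count of Gpx4 carries an uncertainty of its own. Of the 50-base words in its exons, 61.7% also occur in other genes, with the largest number in the pseudogene Gpx4-ps2 (ENSMUSG00000110841), and how reads that fit several places were counted is not given in the sources used here. The row of Gpx4-ps2 held 25.5% to 28.7% of the CPM of Gpx4 in each library. Its log2 fold change was 0.23 over all replicates, 0.79 within replicates 1 and 2 and -0.16 within replicates 3 and 4.

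Among the 11459 tested genes whose mean count reached 100, those whose standardised log2 CPM over the 8 libraries lay closest to Gpx4 were Tex264, Itm2b and Gabarap. Their mean absolute differences from Gpx4 were 0.0609, 0.0858 and 0.0893 SD, and the median over all genes compared was 1.13 SD. Tex264 encodes an endoplasmic reticulum autophagy receptor, and Gabarap a protein of autophagosome membranes. Tex264 was at 41.2, 45.8, 90.5 and 88.1 CPM in BMDC and 74.2, 81.6, 81.6 and 86.5 in BMDC-fer. For Slc7a11 the closest were Dgat1, Tmem151a and Junos, at 0.0653, 0.0682 and 0.142 SD (median 1.09 SD). Dgat1, an enzyme of triglyceride synthesis, was at 20.7, 18.6, 34.4 and 35.1 CPM in BMDC and 26.6, 21.9, 37.8 and 33.1 in BMDC-fer. Junos is antisense to Jun, and its count is uncertain where strand was not used. For both members the genes were picked by this distance, so a value far under the median was fixed in advance. Whether they share a role was not tested.

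Of the 3 defences that work beside GPX4, edgeR and DESeq2 called none over all replicates, and none had an unadjusted p under 0.05. Aifm2 (ENSMUSG00000020085, chromosome 10, 61715263 to 61739260, plus strand) was at 24.5, 30.9, 45.0 and 48.2 CPM in BMDC and at 35.5, 41.3, 50.4 and 46.7 in BMDC-fer. Both groups held their lower values in replicates 1 and 2. Its log2 fold change was 0.23 with an SE of 0.22 (edgeR adjusted p = 0.523). H2afy2, on the opposite strand, shares 5.65% of its exon bases.

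Gch1 (ENSMUSG00000037580, chromosome 14, 47153895 to 47189413, minus strand) was at 40.1, 36.1, 44.9 and 43.9 CPM in BMDC. In BMDC-fer it was at 61.0, 64.3, 40.1 and 41.7 CPM, so that replicates 1 and 2 were above all BMDC libraries and replicates 3 and 4 were not. Over all replicates the log2 fold change was 0.33 with an SE of 0.18 (edgeR adjusted p = 0.244). Within replicates 1 and 2 it was 0.72 and called (edgeR adjusted p = 0.00566), and within replicates 3 and 4 it was -0.10 (edgeR adjusted p = 0.2203). Whether the replicate sets differ in this respect was not tested.

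Dhodh (ENSMUSG00000031730, chromosome 8, 109591343 to 109608673, minus strand) also catalyses a step of pyrimidine synthesis. It was the member with the fewest counts per length in BMDC, at 11.4, 12.02, 8.60 and 8.32 CPM, and it was at 13.3, 14.2, 11.4 and 11.3 CPM in BMDC-fer. In all 4 same-numbered pairs the BMDC-fer library was the higher. The log2 fold change was 0.32 with an SE of 0.17 (edgeR adjusted p = 0.245), and within replicates 3 and 4 it was 0.44 (edgeR adjusted p = 0.00866), under the fold threshold.

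**Figure D2:**
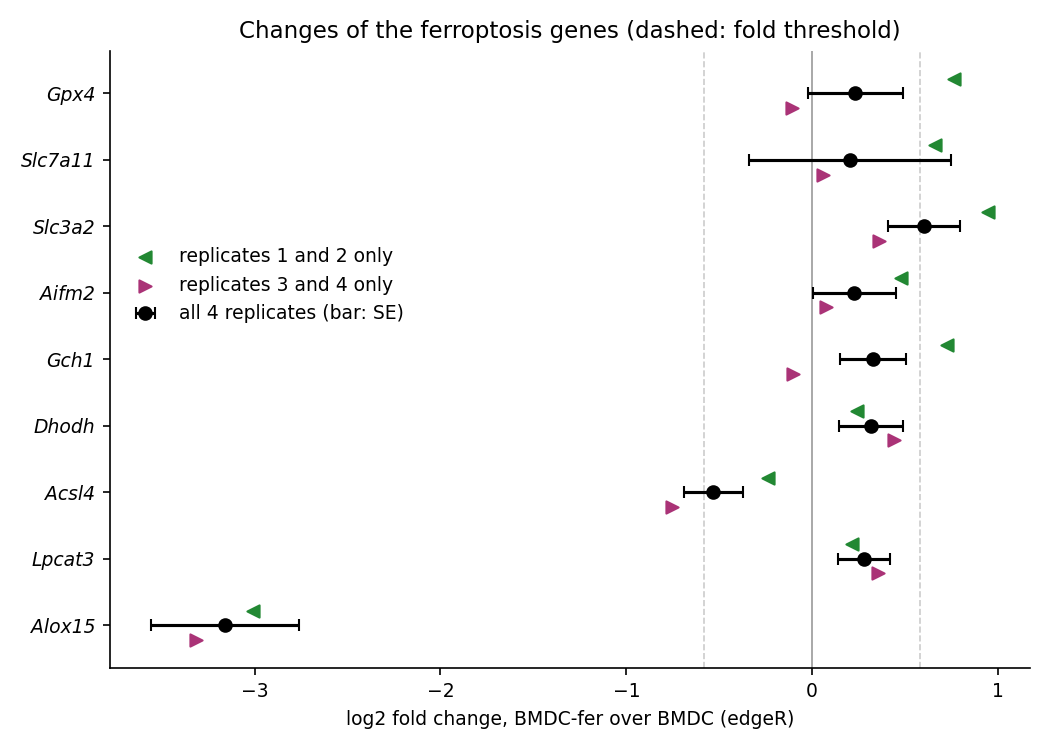
Log2 fold change of BMDC-fer over BMDC (horizontal axis) for each of the 9 genes from all 4 replicates (black circles, bars are SE), from replicates 1 and 2 only (green) and from replicates 3 and 4 only (purple), with dashed lines at the fold threshold of 0.58. Alox15 lies near -3 in all 3 fits, while Gpx4 and Gch1 lie above the threshold in one replicate set and below 0 in the other.

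Among the enzymes that shape the lipid substrate, Acsl4 (ENSMUSG00000031278, chromosome X, 142317993 to 142390535, minus strand) was at 132, 120.1, 182 and 187 CPM in BMDC replicates 1 to 4. It was at 109, 104, 116 and 100.04 CPM in BMDC-fer. All BMDC-fer libraries lay below all BMDC libraries, and they spread less (SD 6.91 CPM around a mean of 107) than BMDC did (SD 33.9 around 155, n = 4). The log2 fold change of -0.53 with an SE of 0.16 had an edgeR adjusted p of 0.0611 and was also short of the fold threshold. The two-sided exact permutation p was 0.0286. With the block it was -0.51 (edgeR adjusted p = 0.0611), and with DESeq2 -0.53 (adjusted p = 0.0332), still short of the fold threshold. Within replicates 1 and 2 it was -0.24 (edgeR adjusted p = 0.112). Within replicates 3 and 4 it was -0.75 and called (edgeR adjusted p = 4.84e-05), in a fit that called 35.7% of all genes. It was also called with library totals alone in place of TMM (-0.60, edgeR adjusted p = 0.0159, with 9.6% of genes called) and without BMDC replicate 2 (-0.63, edgeR adjusted p = 0.0319).

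The start regions of Slc3a2 and Acsl4, the members that separated the groups in opposite directions without passing the test, are shown for comparison, each with GC boxes (GGGCGG on either strand) in capitals. They are chr19:8713848-8714147 and chrX:142390486-142390785, both on the minus strand of GRCm38.p6 and printed 5′ to 3′.
Slc3a2: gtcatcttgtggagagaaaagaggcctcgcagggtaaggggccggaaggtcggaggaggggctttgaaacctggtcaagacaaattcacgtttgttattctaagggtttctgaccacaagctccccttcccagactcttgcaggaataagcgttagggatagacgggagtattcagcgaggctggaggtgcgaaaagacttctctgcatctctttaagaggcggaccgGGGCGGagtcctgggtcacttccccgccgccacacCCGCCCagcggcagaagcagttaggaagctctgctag
Acsl4: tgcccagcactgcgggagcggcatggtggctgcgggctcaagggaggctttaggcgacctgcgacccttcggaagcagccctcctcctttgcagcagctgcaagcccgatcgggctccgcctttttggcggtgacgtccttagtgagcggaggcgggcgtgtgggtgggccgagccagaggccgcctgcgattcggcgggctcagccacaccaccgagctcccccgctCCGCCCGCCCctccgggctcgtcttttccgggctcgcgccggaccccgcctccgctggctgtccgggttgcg
Each held 2 matches, which overlap in Acsl4, and 35.66% of all windows held at least 1, among them those of 5 members (Acsl4, Gch1, Gpx4, Lpcat3 and Slc3a2). The G and C share of the window was 71.67% for Acsl4, 56% for Slc3a2 and 44.67% for Slc7a11.

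Lpcat3 (ENSMUSG00000004270, chromosome 6, 124663027 to 124704418, plus strand) was at 46.9, 58.7, 59.4 and 62.8 CPM in BMDC and at 56.1, 66.0, 80.3 and 74.3 in BMDC-fer. BMDC-fer was higher in all 4 same-numbered pairs, although the groups overlapped. Its log2 fold change was 0.28 with an SE of 0.14 (edgeR adjusted p = 0.218), and within replicates 3 and 4 it was 0.35 (edgeR adjusted p = 0.00191), under the fold threshold. Emg1, on the opposite strand, shares 10.2% of its exon bases.

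Alox15 (ENSMUSG00000018924, chromosome 11, 70344152 to 70352031, minus strand) was at 12.6, 7.28, 7.73 and 8.35 CPM in BMDC, from 549, 346, 327 and 335 counts. In BMDC-fer it was at 1.78, 0.636, 1.01 and 0.576 CPM, from 88, 26, 42 and 22 counts. The groups did not overlap, and the highest BMDC-fer library was well below the lowest BMDC library. The means were 9.0 ± 2.47 and 0.999 ± 0.554 CPM (SD, n = 4). Alox15 had a log2 fold change of -3.16 with an SE of 0.40 (edgeR adjusted p = 0.00384), and the two-sided exact permutation p was 0.0286. It was -3.01 within replicates 1 and 2 and -3.32 within replicates 3 and 4. It was called in all 18 alternatives tried, with log2 fold changes between -3.59 and -2.95 and adjusted p of at most 0.0182 (edgeR or DESeq2).

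Alox15 is known from macrophages and from eosinophils, and in bulk RNA fewer cells of a type and less RNA per cell cannot be told apart. Of 7 eosinophil markers, edgeR tested 3 and 2 fell, and DESeq2 called 5 in either direction. Prg2, which encodes a granule protein, was at 4.12, 0.463, 5.67 and 4.06 CPM in BMDC and at 0.216 to 0.324 in BMDC-fer (log2 fold change -3.72, edgeR adjusted p = 0.0127). Siglecf was at 25.1 to 36.0 CPM in BMDC and 16.1 to 24.0 in BMDC-fer (-0.69, edgeR adjusted p = 0.0476). The summed eosinophil markers were at 35.1 to 50.7 CPM in BMDC and 25.9 to 32.2 in BMDC-fer, and Siglecf made up most of that sum in each library. Epx and Il5ra lay at or under the floor in all BMDC-fer libraries. The other 3 markers of that list averaged higher in BMDC-fer, with overlap between the groups for Ear6 and Ccr3. Ear6 was at 3.37 to 7.47 CPM in BMDC and 4.92 to 12.3 in BMDC-fer (0.55, edgeR adjusted p = 0.301). Ear1 and Ccr3, which were not tested, were at 0.023 to 0.142 and 0.0631 to 0.26 CPM in BMDC and at 0.171 to 1.92 and 0.202 to 0.287 CPM in BMDC-fer. BMDC replicate 2 held the lowest Prg2 of its group (0.463 CPM), with Siglecf at 32.7 CPM and Alox15 lowest at 7.28 CPM. BMDC replicate 3 held the highest Prg2 (5.67 CPM), with Alox15 at 7.73 CPM. BMDC replicate 1 held the highest Alox15 (12.6 CPM), with Prg2 at 4.12 CPM. Of 10 macrophage markers edgeR tested 9, and Adgre1 alone was called and fell (-0.81, edgeR adjusted p = 0.0119). The other tested markers (Mertk, C1qa, C1qb, C1qc, Mrc1, Csf1r, Fcgr1 and Cd68) had log2 fold changes of 0.40 to 0.57 and were not called. The sum of the 10 was at 2636 to 3836 CPM in BMDC and 3094 to 5197 in BMDC-fer, with Timd4 at or under the floor. Of 10 dendritic cell markers 2 fell, Flt3 and Cd86, and their sum was at 9802 to 21339 CPM in BMDC and 4896 to 11272 in BMDC-fer. Flt3, a receptor of dendritic cell precursors, was at 3.43 to 4.47 CPM in BMDC and 0.122 to 0.445 in BMDC-fer (-4.06, edgeR adjusted p = 0.00207). Of 10 neutrophil markers 5 fell, and their sum was at 46.2 to 265 CPM in BMDC and 14.1 to 44.6 in BMDC-fer. An unadjusted p under 0.05 was seen for 7 dendritic cell, 4 macrophage and 9 neutrophil markers. The share of all tested genes at that cutoff is not given here, so these counts cannot be set against it. DESeq2 called 4, 1 and 9 markers of these lists in either direction. Of all genes tested, edgeR called 3.47% higher and 5.91% lower, and DESeq2 called 13.3% in either direction. The part of cell makeup in the fall of Alox15 was not tested.

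**Figure D3:**
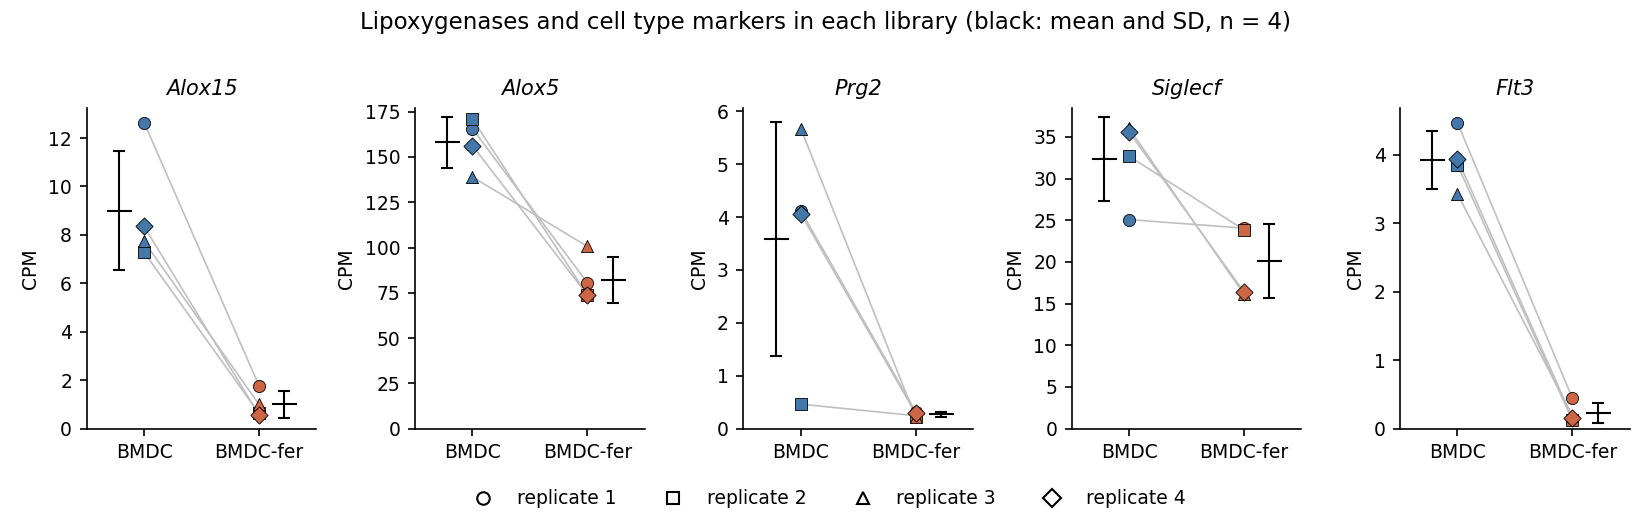
CPM (vertical axes, linear from 0) of the lipoxygenase genes Alox15 and Alox5, the eosinophil markers Prg2 and Siglecf and the dendritic cell marker Flt3 in each BMDC (blue) and BMDC-fer (orange) library, with marker shapes for replicate numbers and black bars for the mean and SD of 4 libraries. BMDC replicate 2 has the lowest Prg2 (0.463 CPM) and Alox15 at 7.28 CPM. BMDC replicate 3 has the highest Prg2 (5.67 CPM) and Alox15 at 7.73 CPM.

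Another lipoxygenase gene also fell. Alox5, which starts leukotriene synthesis, was at 166, 171, 139 and 156 CPM in BMDC and at 80.6, 73.8, 100.6 and 73.8 in BMDC-fer. Its log2 fold change was -0.94 with an SE of 0.13 (edgeR adjusted p = 0.00549), and it was called in all 8 fits that left out 1 library. Por, which encodes the cytochrome P450 reductase that can also promote phospholipid peroxidation, was at 57.7, 73.7, 55.7 and 52.2 CPM in BMDC and rose to 128, 126, 116 and 127 in BMDC-fer (1.05, SE 0.12, edgeR adjusted p = 0.00330). Of 10 listed lipoxygenases and peroxidation oxidoreductases, 5 were tested and these 2 were called, beside 9.38% of all genes tested.

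Levels of different genes were compared per kilobase of exon, as mean CPM per kb. In BMDC the order was Gpx4 (172), Slc3a2 (74.4), Acsl4 (28.7), Lpcat3 (17.4), Slc7a11 (10.4), Aifm2 (9.01), Gch1 (6.60), Alox15 (3.67) and Dhodh (1.596). Gpx4, Slc3a2, Acsl4 and Dhodh did not overlap with the members beside them in that order. Slc7a11, at 4.03 to 17.2 CPM per kb in single libraries, overlapped with Lpcat3, Aifm2, Gch1 and Alox15, and Aifm2 overlapped with Gch1. In BMDC-fer the order was Gpx4 (202), Slc3a2 (113), Lpcat3 (21.2), Acsl4 (19.9), Slc7a11 (12.03), Aifm2 (10.6), Gch1 (8.29), Dhodh (1.99) and Alox15 (0.407). Lpcat3 at 17.2 to 24.6 and Acsl4 at 18.5 to 21.5 CPM per kb overlapped there, as did Slc7a11 with Lpcat3, Acsl4, Aifm2 and Gch1, whereas in BMDC all Acsl4 libraries were above all Lpcat3 libraries. Alox15 was below Dhodh in every BMDC-fer library and above it in every BMDC library. On the same scale Alox5 averaged 38.5 in BMDC and 20.02 in BMDC-fer, above Alox15 in both groups.

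The pathways around the members were read from 11 lists with 126 genes, of which 100 were tested, 7 rose and 7 fell. Among all genes tested, 3.47% were called higher and 5.91% lower. Around GPX4, of 17 genes for the synthesis and recycling of glutathione 13 were tested, and Gls2, a mitochondrial glutaminase, fell from 1.40 ± 0.433 to 0.310 ± 0.0599 CPM (-2.16, edgeR adjusted p = 0.00670). With the replicate block, 2 enzymes of glutathione synthesis, each higher in 4 of 4 same-numbered pairs, were also called: Gclm, at 86.6 ± 33.2 and 203 ± 105 CPM (1.16, edgeR adjusted p = 0.00574), and Gss, at 27.5 ± 13.4 and 47.2 ± 26.6 CPM (0.73, edgeR adjusted p = 0.0176). Gclc of the same list was higher in 2 of 4 pairs (0.15, edgeR adjusted p = 0.704). It was not called with the block either (0.21, edgeR adjusted p = 0.326). Of 14 glutathione peroxidases and peroxiredoxins 9 were tested, and Gpx3, the secreted glutathione peroxidase, rose from 84.1 ± 19.4 to 141 ± 28.7 CPM (0.75, edgeR adjusted p = 0.0483). With the block that call was lost (edgeR adjusted p = 0.0631), and Prdx1, a peroxiredoxin at 1240.4 ± 512 and 2421 ± 716 CPM, was called (1.01, edgeR adjusted p = 0.00945). Of 10 genes for selenoprotein synthesis, which GPX4 needs, all were tested and edgeR called 0. There were 3 at an unadjusted p under 0.05, and DESeq2 called 1. The largest difference of this list was in Lrp8, a receptor that takes up selenoprotein P, at 15.7 ± 1.66 CPM in BMDC and 23.7 ± 6.48 in BMDC-fer (0.59, edgeR adjusted p = 0.0880). Sepsecs was lower in all BMDC-fer than in all BMDC libraries (-0.56, edgeR adjusted p = 0.0412, short of the fold threshold). It was called with library totals alone (-0.66, edgeR adjusted p = 0.0429). Pstk was higher in all BMDC-fer libraries (0.38, edgeR adjusted p = 0.0971).

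Around AIFM2, 16 genes of coenzyme Q synthesis and reduction were tested, 2 of which rose. Nqo1, a quinone reductase, was at 11.03, 11.6, 12.5 and 14.7 CPM in BMDC and at 29.3, 21.9, 95.9 and 75.0 in BMDC-fer. All BMDC-fer libraries were higher, replicates 3 and 4 the most (2.16, SE 0.45, edgeR adjusted p = 0.0204). Coq3, a methyltransferase of coenzyme Q synthesis, rose from 8.82 ± 1.55 to 16.2 ± 0.993 CPM (0.87, edgeR adjusted p = 0.0113). The block added Coq8a, lower in 4 of 4 pairs (-1.07, edgeR adjusted p = 0.0280). Around GCH1, 5 of 7 tetrahydrobiopterin genes were tested, and edgeR called 0. None of them had an unadjusted p under 0.05, and DESeq2 called 0. Around DHODH, 6 genes of pyrimidine synthesis were tested. Umps, whose enzyme acts after DHODH, rose from 21.1 ± 6.30 to 42.4 ± 4.21 CPM (1.01, edgeR adjusted p = 0.0202), and Uck2, a uridine-cytidine kinase, fell from 209 ± 24.7 to 125 ± 27.5 CPM (-0.74, edgeR adjusted p = 0.0284).

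Around ACSL4, 8 of 10 other acyl-CoA synthetase and desaturation genes were tested, and edgeR called 0. There were 2 at an unadjusted p under 0.05, and DESeq2 called 0. Their median log2 fold change was -0.42, and the largest difference was in Acsl3, at 17.0 ± 7.59 and 9.61 ± 2.61 CPM (-0.83, edgeR adjusted p = 0.143). Acsl3 was called within replicates 1 and 2 (-1.66, edgeR adjusted p = 0.00194), and its direction turned within replicates 3 and 4 (0.18, edgeR adjusted p = 0.308). With the replicate block Scd1, a fatty acid desaturase lower in 4 of 4 pairs, was called (-0.77, edgeR adjusted p = 0.00686). Around LPCAT3, 11 of 12 genes of lysophospholipid acylation and ether lipids were tested. Lpcat4, a related acyltransferase, fell from 28.4 ± 18.6 to 6.40 ± 4.40 CPM (-2.15, edgeR adjusted p = 0.0426), and Pla2g6, a calcium-independent phospholipase, rose from 7.35 ± 0.667 to 11.2 ± 1.27 CPM (0.61, edgeR adjusted p = 0.0314). The block added Agpat3, another acyltransferase (0.83, edgeR adjusted p = 0.0426). Of 10 transcription factors tied to ferroptosis 9 were tested and edgeR called 0. There were 6 at an unadjusted p under 0.05, and DESeq2 called 3. The largest difference was in Maff, at 44.7 ± 31.3 and 15.7 ± 5.51 CPM (-1.51, edgeR adjusted p = 0.0962). Within replicates 1 and 2 Maff was at 0.11 (edgeR adjusted p = 0.789), and within replicates 3 and 4 it was called at -2.53 (edgeR adjusted p = 1.28e-07). Nfe2l2, Atf3 and Mafg were higher in all BMDC-fer than in all BMDC libraries (0.63, 0.85 and 0.38, with edgeR adjusted p of 0.0802, 0.0951 and 0.0712). Bach1 was lower in all BMDC-fer libraries (-0.56, edgeR adjusted p = 0.0352, short of the fold threshold). Groups did not overlap for 22.9% of all genes tested. Bach1 was called with library totals alone (-0.63, edgeR adjusted p = 0.00969). It was called within replicates 3 and 4 (-0.77, edgeR adjusted p = 2.61e-05) and not within replicates 1 and 2 (-0.29, edgeR adjusted p = 0.0762). Nfe2l2, which encodes the regulator NRF2, was called with the replicate block (0.67, edgeR adjusted p = 0.0277). The median log2 fold change of this list was 0.35. With the block, 19 genes of the lists were called in place of 14, beside 13% in place of 9.38% of all genes tested. Alox5, Por, Gls2, Coq3 and Slc7a5 were called in all 8 fits that left out 1 library, whereas Nqo1 was called in 6 of them, Umps in 5, Slc7a1 in 4, Slc7a8 and Uck2 in 3, Gpx3 and Lpcat4 in 2, Slc7a7 in 1 and Pla2g6 in 0. The highest adjusted p among these fits was 0.128 for Gpx3 and 0.109 for Lpcat4 (edgeR). With library totals alone in place of TMM, Slc7a8, Umps, Pla2g6 and Gpx3, which rose, were not called.

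**Figure D4:**
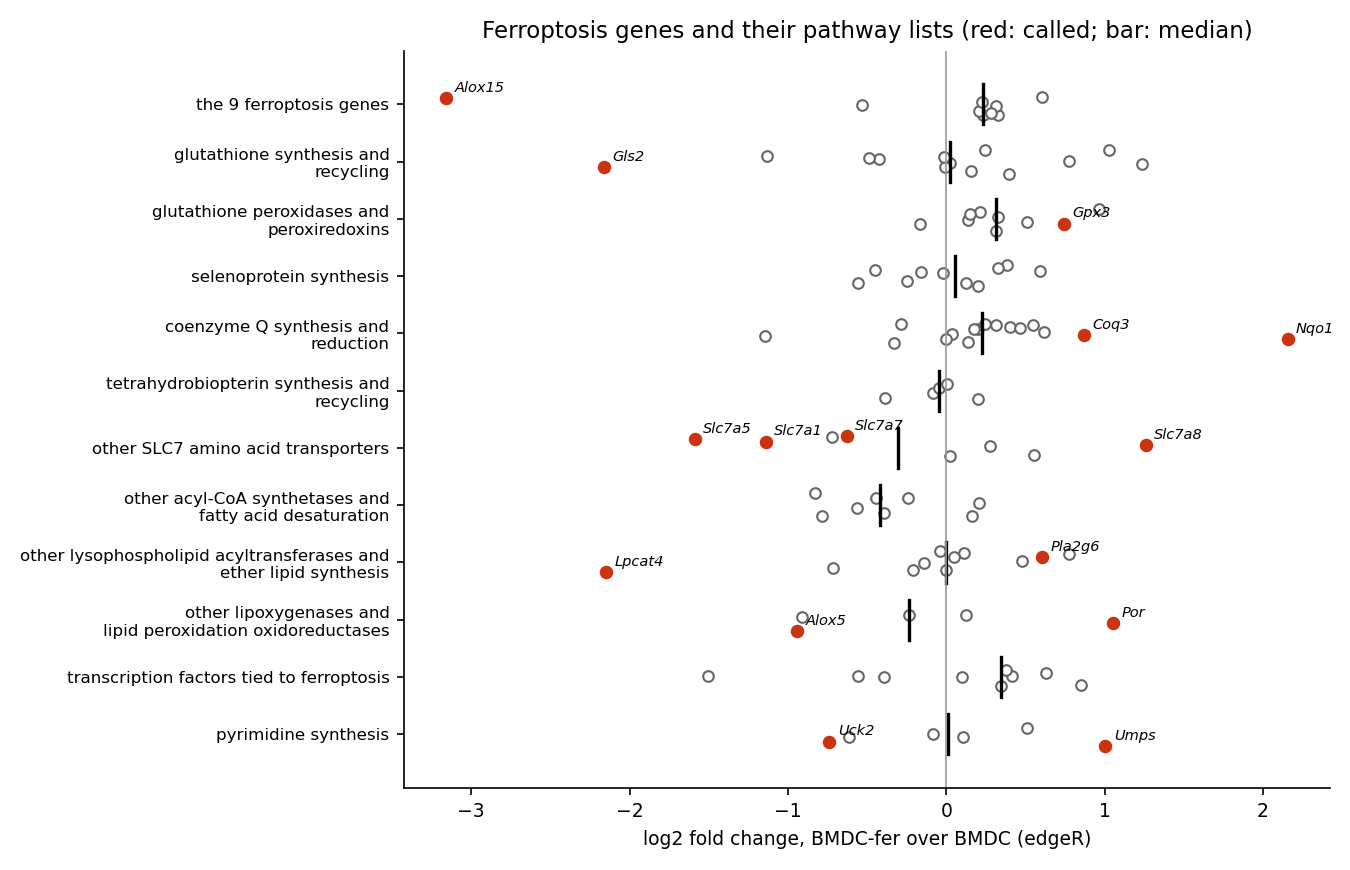
Log2 fold change of BMDC-fer over BMDC (horizontal axis) for each tested gene of the 9 ferroptosis genes and of the 11 pathway lists (rows), with called genes in red and named, other genes as open circles, and the median of each list as a black bar. Among the 9 genes only Alox15 is red. Of the 100 tested genes of the pathway lists 7 rose and 7 fell, beside 9.38% called of all genes tested.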

How the data were processed

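Poly(A) RNA of 4 BMDC and 4 BMDC-fer samples was sequenced. Per the labels, the authors used CASAVA, HISAT2, featureCounts, DESeq2 and the mouse build mm10. The deposited values are raw counts per gene, without normalization. The annotation release, and how strand and reads fitting several loci were treated, are not given in the sources used here. The paper counted reads on the mouse and the human genome, and human counts were not analysed here. Only BMDC-fer took up human cells, and whether reads from those cells were counted on mouse genes was not tested. The paper describes the samples as collected independently, and the labels do not state whether they came from separate mice, so p-values measure the spread between these samples, which may in part be technical.

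Of 55487 identifiers, 55227 had a symbol in GENCODE release M21 (GRCm38), which also gave positions and exon lengths. In R 4.3.3, edgeR 4.0.16 tested the 15411 genes that passed filterByExpr (count minimum 10, or 0.236 CPM), with TMM scaling, quasi-likelihood tests and Benjamini-Hochberg adjustment. Genes were called where the adjusted p was at most 0.05 and the log2 fold change at least 0.58 in size. Counts of genes at an unadjusted p under 0.05 are given without the share of all tested genes at that cutoff. For single genes, log2(CPM + 0.05) was compared by an exact permutation test (two-sided) over the 70 splits of 8 libraries, with scipy 1.17.1. CPM are on TMM-scaled library sizes. Same-numbered libraries deviated together from their group means (r across genes 0.313 to 0.446, genes not being independent), so the numbers were taken to pair the samples. Libraries of the other number in the same replicate set deviated together nearly as much (mean r 0.299 beside 0.364), and 2 of 4 numbers matched their own best. The main fit had no block, since the methods name none. No libraries differed by less than the sampling noise. The floor of 3 counts covers counting error only, since reads are not independent molecules. Alternatives were DESeq2 1.42.0, a replicate block, other scalings and filters, each replicate set alone and each library left out. The fits were tested on simulated data.

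All 9 members are named, with the called genes of each pathway list (at most 3 per direction, or else the gene with the largest difference), the 3 genes closest to Gpx4 and Slc7a11, and marker genes. Genes called only with the block, Gclc, transcription factors other than Maff, Sepsecs and Pstk, and Ear6, Ear1 and Ccr3 were named after their values were seen. Not every gene this covers is reported here. Flt3 and the other single markers were picked after their values were seen. The members and lists were chosen with earlier results of these data known. Promoter windows are from RefSeq (GRCm38.p6).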

Additional observations from a re-analysis of the deposited data

Results flagged for a closer look

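In BMDC-fer, replicate 2 stood apart for Gls2, with a gap to the next library of 0.931 of the group's range, at 0.22 CPM beside 0.335 to 0.344 CPM. Replicate 3 stood apart for Por in the same way (0.846), at 116 CPM beside 126 to 128 CPM. Among 54 groups of 4 libraries examined over 27 genes, chance would give about 2.7 such cases, and 2 were found.

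Gpx4 had a log2 fold change of 0.76 within replicates 1 and 2 and of -0.11 within replicates 3 and 4, with every same-numbered pair following its set. Gch1 behaved alike, at 0.72 and -0.10. The difference between the replicate sets was not tested for either gene.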

How the results depend on the processing

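Of 162 alternative values for the members, 147 kept their direction and their side of the threshold, 10 passed it newly and 5 changed sign. The count of 1 called member became 2 with the replicate block, with library totals alone, with DESeq2 and with DESeq2 and the block, 4 within replicates 1 and 2, and 2 within replicates 3 and 4. It was 1 to 2 when 1 library was left out, with Acsl4 added without BMDC replicate 2 and Slc3a2 without BMDC replicate 3. The sign turned for Gpx4 (-0.11) and Gch1 (-0.10) within replicates 3 and 4, and for Slc7a11 in 3 of the fits with 1 library left out (range -0.11 to 0.56). The cause was not tested. The pathway lists had 14 calls, against 19 with the replicate block, 23 with DESeq2, 25 with DESeq2 and the block, 35 within replicates 1 and 2, 32 within replicates 3 and 4, and 5 to 15 with 1 library left out. Over all genes 1445 calls became 2000 with the replicate block, 2414 with DESeq2, 2867 with DESeq2 and the block, 3062 within replicates 1 and 2, 5604 within replicates 3 and 4, and 565 to 1440 with 1 library left out. Without BMDC-fer replicates 2, 3 or 4 or BMDC replicates 3 or 4 the calls over all genes were 797, 867, 565, 862 and 879, and those in the lists 8, 9, 5, 8 and 8. Calls split into 534 higher and 911 lower, or 300 and 1179 with library totals alone, which moved the median of all genes to -0.09. Members whose groups did not overlap numbered 3, and 4 without BMDC-fer replicate 1. The block lost the calls of Gpx3 and Slc7a1 and gained those of Slc3a2, Gclm, Gss, Prdx1, Coq8a, Scd1, Agpat3 and Nfe2l2. Library totals alone lost the calls of Slc7a8, Umps, Pla2g6 and Gpx3 (edgeR adjusted p of 0.0504, 0.0536, 0.0526 and 0.0528). That scaling gained those of Acsl4, Sepsecs, Coq8a, Agpat3 and Bach1. Alox15 rests on 22 to 88 counts per library in BMDC-fer.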

Other observations

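Markers of 3 further cell types were read in the same libraries. Of 10 T cell markers 3 were tested and Lck fell (log2 fold change -1.59, edgeR adjusted p = 0.0482), at 0.460 to 1.39 CPM in BMDC and 0.196 to 0.407 CPM in BMDC-fer. There were 2 at an unadjusted p under 0.05, and DESeq2 called 2. The sum of all 10 T cell markers was at 29.8 to 43.0 CPM in BMDC and 29.3 to 53.9 CPM in BMDC-fer, of which Cd28 made up 27.4 to 40.7 and 28.4 to 52.9 CPM. The T cell receptor genes Trbc1 and Trbc2 lay at or under the floor of 3 counts in all libraries. Of 8 mast cell and basophil markers 3 were tested and edgeR called 0, with 2 at an unadjusted p under 0.05, and DESeq2 called 4. Their sum was at 33.4 to 65.1 CPM in BMDC and 14.6 to 33.0 CPM in BMDC-fer. Of 5 B cell markers 1 was tested and edgeR called 0, with 0 at an unadjusted p under 0.05, and DESeq2 called 0. Their sum was at 0.368 to 1.44 CPM in BMDC and 0.404 to 0.602 CPM in BMDC-fer.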
